A study of Mus musculus with 6 samples.

Results

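Genes of glycolysis and of the response to low oxygen were followed in the optic fissure of mouse embryos with and without Cre-mediated deletion of the FGF receptor genes Fgfr1 and Fgfr2. The set was 32 named genes: glucose transporters, the enzymes from hexokinase to lactate dehydrogenase, the pyruvate dehydrogenase kinases with 1 subunit of their target, and genes of the HIF oxygen-sensing system with its targets. Each gene was read on 1 probe set, a group of short oligonucleotides on the array that together measure 1 transcript, chosen as the one with the highest mean over all arrays among those that the platform annotation assigns to that gene alone. Such a probe set was found for 29 of the 32 genes. Gpi1 and Eno1 had none, and Gapdh was covered only by manufacturer control probe sets and by probe sets annotated to several genes. All 29 passed a filter on dim probe sets applied to the mean of the 6 arrays, as did 12281 of 18193 genes in the whole table.

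The samples were optic fissures, the ventral groove through which vessels enter the optic cup, dissected with a laser from E11.5 embryos of the C57BL/6J strain. Every embryo carried Fgfr1 and Fgfr2 with loxP sites on both alleles (Fgfr1fx/fx;Fgfr2fx/fx). The 3 mutant samples also carried Six3Cre, a recombinase transgene active in the early eye field and ventral forebrain, and the 3 control samples did not (Six3Cre-). The titles number the arrays 8711, 9216 and 9266 in both groups. Where 3 intensities are given for a group, they are in that order. Nothing in the labels says whether the samples of a group are separate embryos or pools, so a p-value reflects no more than how these arrays vary, and part of that variation may be technical.

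In glycolysis, glucose enters the cell through transporters, is phosphorylated and split, and is converted to pyruvate with a small gain of ATP. Lactate dehydrogenase turns pyruvate into lactate, whereas the pyruvate dehydrogenase complex passes it to the mitochondria, and pyruvate dehydrogenase kinases switch that complex off. When oxygen is low, the HIF prolyl hydroxylases stop marking the alpha subunit of HIF for destruction, and HIF raises transcription of most of these genes, of Vegfa and of its own hydroxylases. Proliferating progenitors such as those of the embryonic retina are known for high use of glycolysis.

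The mutant 8711 array stood apart from the other arrays. Its median intensity was 18.1, against 28.7 to 34.6 in the others. The correlation of an array with the rest averaged 0.836 for it and 0.917 to 0.932 for each of the others. Counting probe sets whose lowest value in the other arrays was at least 15.1, it held 2465 tested ones at least 4-fold under that value, against 14 to 30 such probe sets in each of those. Of the 66 member probe sets, 1 was of that kind, a second, dim Pfkp probe set (6.3 there and 26.4 to 48.0 elsewhere). Below that floor, tested probe sets of Hif1a (1.3 there and at least 11.9 elsewhere) and P4ha1 (1.8 and at least 10.7) were also at least 4-fold lower on it. Gapdh, the glycolytic dehydrogenase used as an RNA control, read 93.6 times higher at the 3 prime than at the 5 prime end on it, and 4.26 to 14.96 times higher elsewhere. For Actb, the other control gene read this way, that ratio was 14.8 on it and 6.03 to 12.1 elsewhere, a much smaller excess. The 3 prime Actb probe set read 1147 on it and 4547 to 9293 elsewhere. The Gapdh ratios of the groups overlapped (two-sided exact permutation p = 0.7, where 3 against 3 arrays allow no p under 0.1). The 3 prime Gapdh control probe set, which is nearest to the end where labelling starts, read 7057, 6734 and 7704 in controls 8711, 9216 and 9266, and 5026, 7289 and 8046 in the mutants in the same order. The middle Gapdh probe set read 3324 to 4428 in controls, 4921 and 3669.8 in mutants 9216 and 9266, and 213 in mutant 8711. Gapdh is described by these control probe sets alone and enters no other test. The plot of log2 differences therefore shows each member also without this array.

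As to the deleted genes, the Fgfr1 probe set with the highest mean ranged from 89.8 to 247 in the controls and from 59.9 to 141 in the mutants, and that of Fgfr2 from 314 to 474 and from 869.9 to 1316. Whether these probes lie in the deleted exons was not analysed here, so they do not check the genotypes. Markers of the labelled tissue were present: all 9 optic cup markers with a probe set, Six3 and Lhx2 among them, passed the filter, with summed intensities of 5797 to 6886 in controls, against 5112 to 6420 in mutants. The sums hide lower values of most of these genes: 7 of the 9 had lower mutant means, with a median log2 difference of -1.08, and 6 of 9 with a median of -0.54 without mutant 8711. All mutants were below all controls for 4 of them and above all controls for 1. The sums of markers of other cells also lay apart in some cases. Summed intensities of 11 pigment epithelium markers were 13026 to 15284.5 in controls, against 21532 to 35368 in mutants. Those of 11 periocular mesenchyme markers were 1082 to 2349 and 2826 to 3207, and those of 10 macrophage markers 1567 to 2265 and 2573 to 3168. The log2 differences were above 0 for all 11 pigment epithelium and all 11 mesenchyme markers. Of the 10 macrophage markers 7 were above 0 and 3 below. Neuron and ganglion cell markers (9 with a probe set, of which Stmn2, Dcx and Isl1 were under the filter level of 15.1) summed to 344 to 714 and 118 to 228. The 8 erythroid markers summed to 13402 to 18070.5 and 17222 to 18565, with Hba-a1 and Epb42 under the filter level. The 10 endothelial markers summed to 397 to 752 and 285 to 591, with Pecam1 and Tie1 under it. The 8 lens markers, with Foxe3 and Mip under it, summed to 1197 to 1821 and 401 to 2432. The part of these differences in the results below was not tested, and in bulk tissue fewer cells of a type and less RNA per cell cannot be told apart.

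Across the set, the mutants did not differ from the controls in 1 direction. Differences are given as mutant minus control on a log2 scale, where 1 is a doubling. They were above 0 for 14 of the 29 genes (48.3%) and below 0 for 15, with a median of -0.03. Among all 12281 genes tested 53.3% were above 0, with a median of 0.03. A size over 0.5 was reached by 6 members (20.7%), against 23.2% of all genes. Centring each array on its median in place of the deposited scaling moved the median of all genes to 0.14 and that of the set to 0.08, with 17 of 29 genes above 0, so that small differences depend on the scaling. With limma and Benjamini-Hochberg adjustment over all 27022 probe sets, 0 members passed a threshold of 0.05, as did 0% of all probe sets, and the smallest adjusted p in the set was 0.687. Before adjustment 5.57% of all probe sets had a p under 0.05. At an unadjusted p under 0.05 there were 4 members, all higher (Pdk1, Hif1a, Slc2a3 and Egln3), or 13.8% of the set. Of all genes 6.9% were below that p, 4.38% with higher and 2.52% with lower values in the mutants. Control and mutant ranges were separate for 3 members (Pdk1, Hif1a and Egln3), all higher, or 10.3%. Among all genes 14.8% had separate ranges, 9.38% higher and 5.45% lower. The share with separate ranges is near that of all genes, and no member passed adjustment, so the differences described next are values of single genes.

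**Figure D1:**
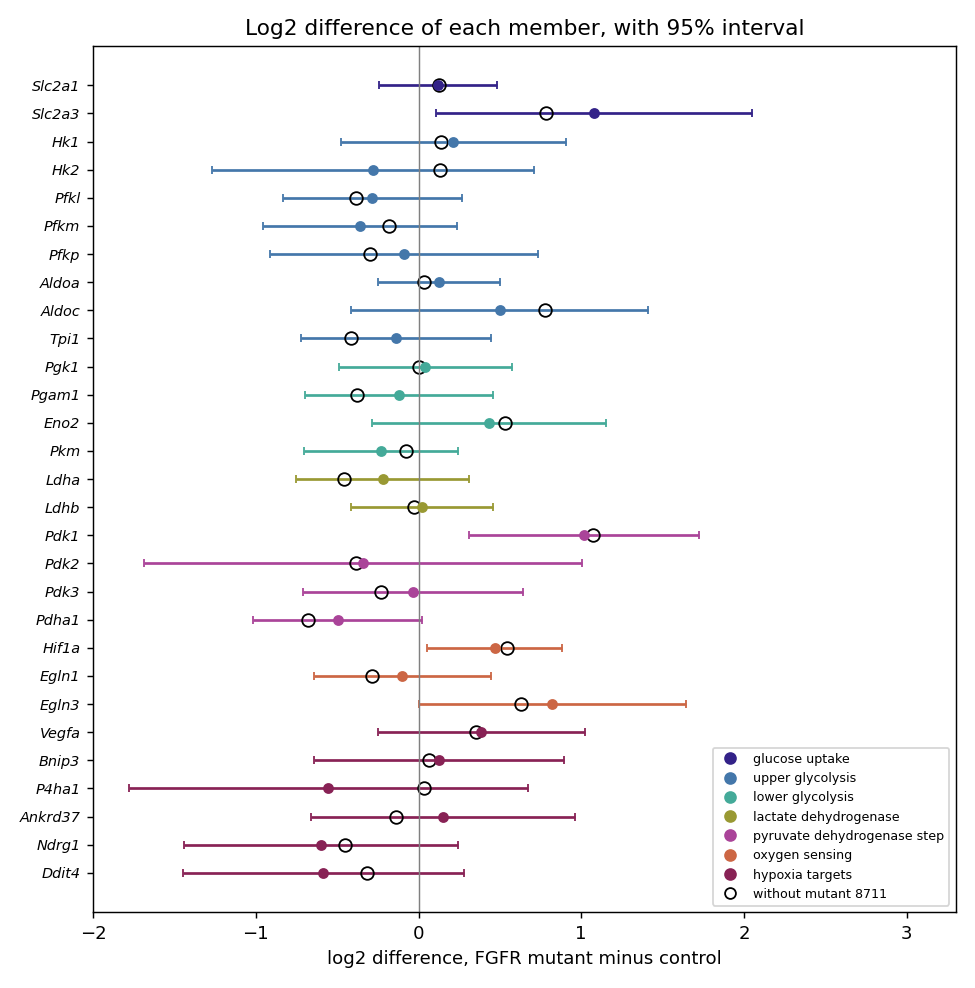
Log2 difference of intensity, FGFR mutant minus control, for the 29 genes ordered by role, with filled points and bars for the estimate and its 95% interval from limma over 6 arrays, and open circles for the estimate without mutant 8711. The intervals of Slc2a3, Pdk1, Hif1a and Egln3 lie above 0, those of the other genes include 0, and most open circles of the enzymes from Hk1 to Ldhb stay within 0.5 of 0.

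HIF binds a short core in DNA, and the promoters of the members were read for it. The core was searched as ACGTG and GCGTG on both strands in RefSeq windows (GRCm38.p6) from 250 bases before to 50 bases after each annotated gene start. Within CACGTG the first motif is read on both strands. Windows were found for 27 of the 29 genes. In 25 of these 27 genes (92.6%) at least 1 window held a core, against 67.5% of the 9951 tested genes with a window and 46.7% of all 27025 genes. The median G and C content of the windows was 62.3% for the members and 60.7% for tested genes. ACGTG alone was present in 74.1% of members and 29.4% of tested genes, and GCGTG alone in 66.7% and 55.8%. Counted by window, 76.9% of 39 member windows held a core of either kind, against 61.4% of 12731 windows of tested genes. The set includes HIF targets by choice, so these shares are no finding about the mutants. A match is only a match of letters. The windows below are of 3 genes with higher values and non-overlapping groups (Pdk1, Egln3 and Hif1a) and of 2 textbook HIF targets whose groups overlapped (Ldha and Pgk1). Capitals mark the core or its reverse complement. Pdk1 and Ldha each have a second window, not shown, which holds 0 cores for Pdk1 and 2 for Ldha, and the window shown is the one with more cores.
Pdk1, chr2:71872974-71873273, plus strand: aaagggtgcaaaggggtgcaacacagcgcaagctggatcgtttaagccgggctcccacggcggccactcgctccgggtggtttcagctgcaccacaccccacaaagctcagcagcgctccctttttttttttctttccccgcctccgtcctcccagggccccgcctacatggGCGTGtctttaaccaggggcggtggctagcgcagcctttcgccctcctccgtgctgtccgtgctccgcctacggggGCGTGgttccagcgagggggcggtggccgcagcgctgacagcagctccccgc
Egln3, chr12:54203825-54204124, minus strand: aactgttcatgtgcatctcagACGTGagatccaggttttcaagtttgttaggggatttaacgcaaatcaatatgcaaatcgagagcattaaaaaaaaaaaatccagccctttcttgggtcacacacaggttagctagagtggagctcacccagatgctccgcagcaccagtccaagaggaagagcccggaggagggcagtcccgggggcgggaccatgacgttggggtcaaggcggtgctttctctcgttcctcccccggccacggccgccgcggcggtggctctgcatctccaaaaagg
Hif1a, chr12:73907617-73907916, plus strand: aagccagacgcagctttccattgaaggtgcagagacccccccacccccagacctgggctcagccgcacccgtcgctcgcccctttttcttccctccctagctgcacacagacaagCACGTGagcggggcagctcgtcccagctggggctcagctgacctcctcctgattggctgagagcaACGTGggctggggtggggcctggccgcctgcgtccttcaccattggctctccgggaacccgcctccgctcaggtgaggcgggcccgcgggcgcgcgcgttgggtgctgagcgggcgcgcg
Ldha, chr7:46845554-46845853, plus strand: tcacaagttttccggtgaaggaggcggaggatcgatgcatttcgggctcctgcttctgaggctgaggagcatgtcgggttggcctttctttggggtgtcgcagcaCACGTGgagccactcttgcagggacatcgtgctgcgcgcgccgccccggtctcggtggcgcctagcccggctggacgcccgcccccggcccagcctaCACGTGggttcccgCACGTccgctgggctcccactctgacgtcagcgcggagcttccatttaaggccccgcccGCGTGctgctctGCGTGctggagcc
Pgk1, chrX:106186850-106187149, plus strand: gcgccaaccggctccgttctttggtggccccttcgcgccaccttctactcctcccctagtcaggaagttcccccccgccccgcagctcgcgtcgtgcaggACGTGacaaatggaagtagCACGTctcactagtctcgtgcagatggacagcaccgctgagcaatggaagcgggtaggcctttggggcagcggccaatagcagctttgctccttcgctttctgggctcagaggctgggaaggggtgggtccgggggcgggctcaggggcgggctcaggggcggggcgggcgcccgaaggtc
The Ldha window shown held 7 cores, 5 of them ACGTG, where each of 2 CACGTG counts as 2 cores. The log2 difference of Ldha was -0.22. The Pdk1 window held 2 cores, both GCGTG, the first starting at position -78 from the gene start. The log2 difference of Pdk1 was 1.02. Egln3 had 1 core, at -229, and Hif1a had 3, of which 2 share a CACGTG. These genes were chosen partly by their values, so nothing is read from cores against differences over them.

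Of the glucose transporters, Slc2a3 (GLUT3, the high-affinity transporter of neurons and of early embryos) had higher values in the mutants, and Slc2a1 (GLUT1, the transporter of most embryonic cells and of blood-tissue barriers) differed by less than its spread. Slc2a3 read 292, 182 and 364 in controls 8711, 9216 and 9266, and 856, 341 and 630.3 in mutants 8711, 9216 and 9266. The groups overlapped only in that mutant 9216 lay under control 9266. Group means of 279 ± 91.4 and 609 ± 258 (SD, n = 3 each) gave a difference of 1.08 (SE 0.41), or 2.11-fold, which did not pass adjustment (limma, adjusted p = 0.852). A second Slc2a3 probe set read 100.5, 98.5 and 109 in controls, against 331, 196.5 and 273 in mutants. There the groups did not overlap and the log2 difference was 1.33 (SE 0.27, adjusted p = 0.485 in limma). The other Slc2a3 probe sets, under the filter level and not tested, read at most 10.7 in controls and at most 8.3 in mutants. Without mutant 8711 the first probe set gave 0.79. In both groups Slc2a3 was lowest in the 9216 array. The mesenchyme, macrophage and pigment epithelium sums given above were also higher, and the neuron marker sum lower, in all mutants than in all controls, and their part in the Slc2a3 values was not tested.

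Slc2a1 read 3977, 3959.9 and 4132 in controls, against 4340.0, 3686 and 5219 in the mutants. The control values were close together, with a SD of 94.9 around 4023, and the mutant values lay on both sides of them (4415 ± 769, SD, n = 3). The log2 difference was 0.12 with a 95% interval from -0.24 to 0.48. Its 2 other probe sets gave 0.05 and -0.15.

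**Figure D2:**
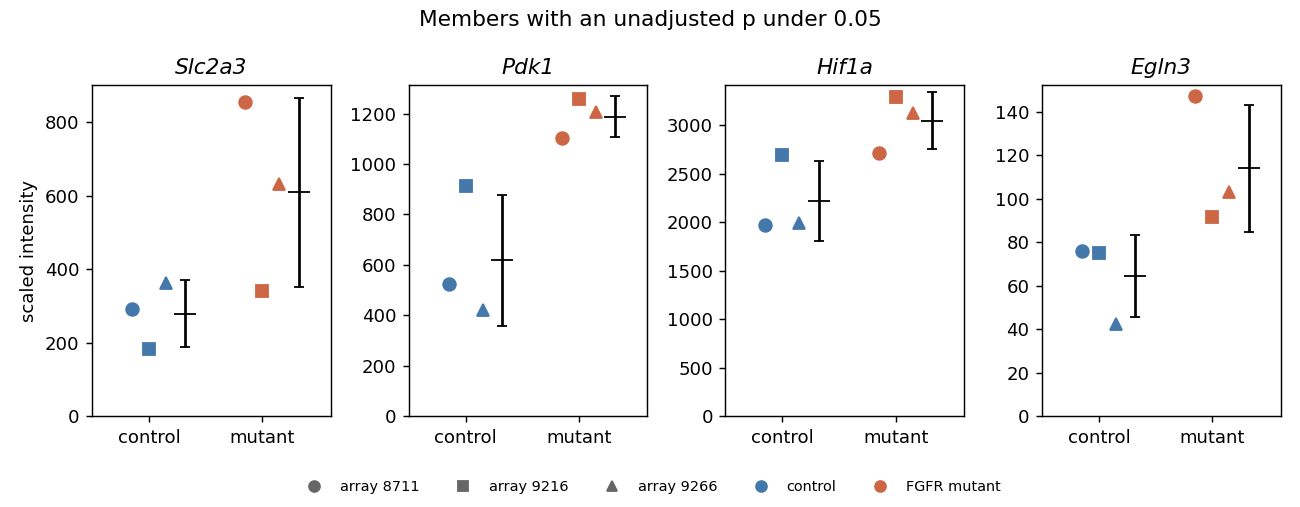
Scaled intensity of Slc2a3, Pdk1, Hif1a and Egln3 in each array on axes that start at 0, with marker shapes for the array number, and black bars for mean and SD of 3 arrays. All 3 mutant points lie above all control points for Pdk1, Hif1a and Egln3, while for Slc2a3 mutant 9216 (341) lies under control 9266 (364).

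The 12 glycolytic enzymes measured had small differences of both signs, 5 above and 7 below 0, from -0.36 to 0.50 on the log2 scale around a median of -0.10 (-0.037 without mutant 8711). None had a limma p under 0.05 before adjustment, and in none did the groups separate. Their 95% intervals reached from -1.27 (Hk2) to 1.41 (Aldoc), so changes beyond 2-fold were not excluded for the dimmer or more variable ones, whereas for Aldoa the interval was -0.25 to 0.50.

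Upper glycolysis runs from hexokinase, which traps glucose as its phosphate, to triose phosphate isomerase. The hexokinase Hk1 had a log2 difference of 0.21, or 0.14 without mutant 8711, and the inducible hexokinase Hk2 of -0.28. Hk2 read 194, 138 and 234 in controls, against 85.3, 178 and 229.8 in the mutants, and without mutant 8711, its lowest array, the difference was 0.13. The phosphofructokinase genes, which encode the main regulated step, all had values under 0, with log2 differences of -0.28 for Pfkl, -0.36 for Pfkm and -0.09 for Pfkp, or -0.38, -0.18 and -0.30 without mutant 8711. Pfkm, the muscle-type subunit, had the smallest p of the upper enzymes (adjusted p = 0.852 in limma), with 294, 282 and 383 in controls, against 192, 286 and 274 in mutants, which overlap. All 3 tested Pfkl probe sets were lower, at -0.28, -0.39 and -0.51, and in the second of them the groups did not overlap. The last of these rested on mutant 8711 (18.3, against 39.7 and 60.9 in the other mutants) and was -0.056 without it. The aldolase Aldoa had 0.13 (0.032 without mutant 8711) and the brain-type aldolase Aldoc 0.50 (0.78). Aldoc read 114 in mutant 9266, 60.8 in mutant 9216 and 45.8 in mutant 8711, against 45.6 to 49.4 in controls.

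Tpi1, the triose phosphate isomerase gene, had nearly the same level in all controls and scattered in the mutants. It read 2150.4, 2136 and 2178 in controls 8711, 9216 and 9266, and 2877, 1565 and 1668 in the mutants. Mutant 8711 was above every control, and the other mutants were below every control. The log2 difference over all arrays was -0.14 (SE 0.25, adjusted p = 0.907 in limma), and without mutant 8711 it was -0.42. Its other probe sets also had mutant 8711 above and the other mutants below every control, with 2618 and 2002 in mutant 8711 against 1746 to 2016 and 1399 to 1472 in the controls, and 1330.3 and 1095 in mutant 9216.

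Among the enzymes of lower glycolysis, Pgk1 (phosphoglycerate kinase, the first ATP-forming step) read 3645, 5425 and 3359 in controls, against 4411, 4809 and 3410.0 in the mutants. In both groups the 9216 array was highest and the 9266 array lowest. The log2 difference was 0.04 with a 95% interval from -0.49 to 0.57, and -9.9e-05 without mutant 8711. Its other probe sets gave -0.06 and -0.33, or -0.41 and -0.68 without mutant 8711, their highest array. The first of these read 5105.5, 3034 and 2015 in mutants, against 3006 to 3720 in controls. Pgam1 (phosphoglycerate mutase) read 2195, 2126 and 2329 in controls, against 2906, 1891 and 1540.4 in the mutants, where mutant 8711 was likewise above and the other mutants below every control, with a log2 difference of -0.12, or -0.38 without mutant 8711. Eno2, the neuronal enolase, had the smallest p of these enzymes (adjusted p = 0.852 in limma), with 67.8, 57.1 and 98.1 in controls, against 85.4, 99.8 and 112 in the mutants and a log2 difference of 0.43. Pkm, a pyruvate kinase gene, had -0.23, and -0.07 without mutant 8711, where it was lowest.

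Lactate dehydrogenase is a tetramer of the products of Ldha, favoured where pyruvate is reduced to lactate, and of Ldhb. Ldha read 2987, 3188 and 2969.5 in controls, against 3639, 2419 and 2034 in mutants. As for Tpi1 and Pgam1, mutant 8711 was above and mutants 9216 and 9266 were below every control. The log2 difference was -0.22 (SE 0.22, adjusted p = 0.854 in limma) over all arrays and -0.46 without mutant 8711. Ldhb read 3166, 2282 and 3413 in controls, against 3154, 2728 and 3000.0 in the mutants, all within the control range, with a log2 difference of 0.02 (-0.025 without mutant 8711) and a 95% interval from -0.42 to 0.46. Its 3 other probe sets gave -0.05, 0.22 and -0.13.

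**Figure D3:**
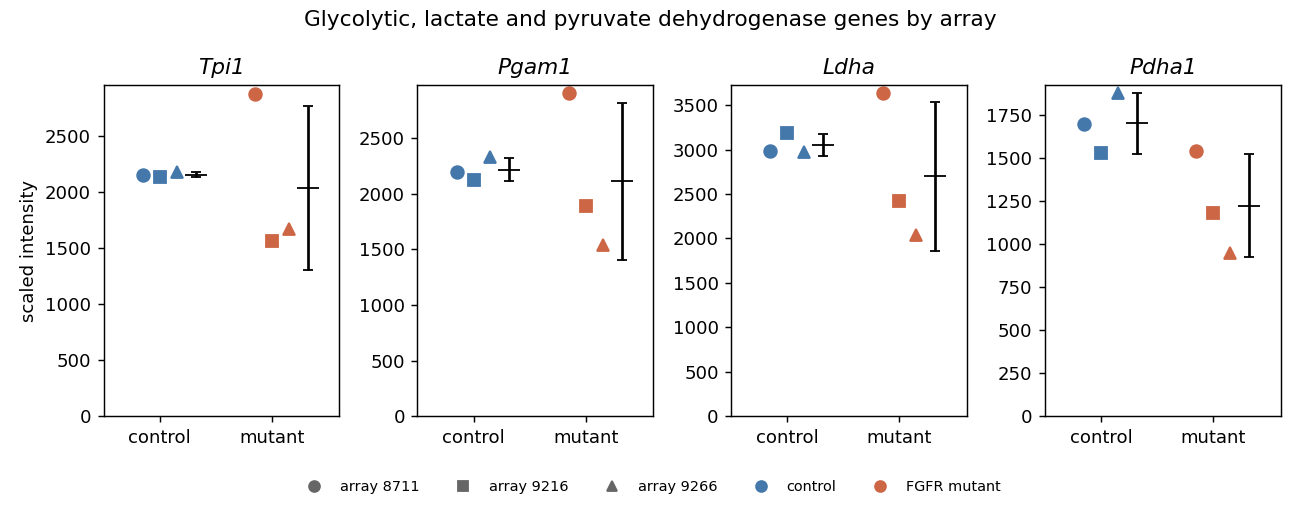
Scaled intensity of Tpi1, Pgam1, Ldha and Pdha1 in each array on axes that start at 0, with marker shapes for the array number, and black bars for mean and SD of 3 arrays. Mutant 8711 (circle) is the highest array for Tpi1, Pgam1 and Ldha, and mutants 9216 and 9266 lie below all controls for the 4 genes.

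Being highest in mutant 8711 was about as frequent in the set as elsewhere, with 10 of 29 members (34.5%) against 30.5% of all genes. It was the lowest array for 6 members (20.7%), against 26.7% of all genes. With that array left out, limma gave 7 members an unadjusted p under 0.05 (24.1%, against 9.59% of 12190 genes). Of these, Pdha1, Ldha, Tpi1 and Pgam1 were lower (13.8% of the set, against 4.08% of genes) and Pdk1, Hif1a and Aldoc were higher (10.3%, against 5.51%). In that comparison the differences of 13 members (44.8%) were above 0, against 52.8% of genes, and 0 members passed adjustment over all probe sets, the smallest adjusted p being 0.307, and 0.0082% of all genes did. The remaining mutants lay below all controls for 5 members (17.2%, against 11.1% of genes), which were those 4 and Egln1, and above all controls for another 5 (17.2%, against 15.2%).

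At the branch between lactate and mitochondria, Pdk1 and Pdha1 had values that lay in opposite directions. Pdk1, a kinase that inactivates pyruvate dehydrogenase, had the smallest unadjusted p of the set, and its values were higher in every mutant than in any control. It read 522, 911 and 421 in controls 8711, 9216 and 9266, and 1102, 1259 and 1206 in the mutants. The mutant arrays were close together (1189 ± 79.8, SD, n = 3) and the controls less so (618 ± 259, SD, n = 3), control 9216 being the high one. The log2 difference was 1.02 (SE 0.30), or 2.03-fold, with an unadjusted p of 0.0114 and an adjusted p of 0.687 in limma. With 1 array left out it ran from 0.78 to 1.34, and without mutant 8711 it was 1.07.

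Pdk1 was covered by further probe sets. One read 352, 350.2 and 329.6 in controls, against 503, 476 and 869.8 in the mutants, and another 233, 215 and 262 in controls, against 416, 293 and 423 in mutants. Both separated the groups, with log2 differences of 0.78 and 0.65. The fourth was dim, with 5.8, 43.7 and 42.6 in controls, against 4.3, 25.7 and 45.9 in the mutants, overlapping groups and a log2 difference of -0.32. So 3 of 4 Pdk1 probe sets had all mutants above all controls.

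Pdha1, the X-linked gene of the catalytic alpha subunit that the kinases phosphorylate, read 1698, 1528 and 1877 in controls, against 1544, 1180.0 and 948 in the mutants. The groups overlapped only in that mutant 8711 exceeded control 9216. The log2 difference was -0.50 (SE 0.22, adjusted p = 0.852 in limma), and -0.68 without mutant 8711. A dimmer probe set read 246, 179 and 236 in controls, against 188, 109 and 116 in mutants, with a log2 difference of -0.70. The other kinases did not follow Pdk1: Pdk3 had a log2 difference of -0.03 (95% interval -0.71 to 0.64), or -0.23 without mutant 8711, and Pdk2, at intensities of 9.5 to 40.9, one of -0.34 with a SE of 0.57. The difference between Pdk1 and the other kinases was not tested.

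Of the oxygen-sensing genes, Hif1a and Egln3 had higher values in the mutants and Egln1 did not. Hif1a encodes the alpha subunit of HIF, which is controlled mostly through the stability of its protein. It read 1975, 2692 and 1987 in controls, against 2717, 3288 and 3125 in mutants. All mutants were above all controls, by a narrow margin between mutant 8711 and control 9216. Group means of 2218 ± 410.3 and 3044 ± 294 (SD, n = 3 each) gave a difference of 0.47 (SE 0.18), or 1.38-fold (limma, adjusted p = 0.852). A second probe set had a log2 difference of 0.56 with overlapping groups (348 to 699.9 in controls, 583 to 799 in the mutants), control 9216 again being the high control. Another was at 1.3 in mutant 8711 and 11.9 to 269 in the others, and gave no clear value (0.20, SE 1.85).

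Control 9216 was the highest control for both Hif1a and Pdk1, and mutant 9216 was the highest mutant for both. Control 9216 also had the lowest mesenchyme (1082), macrophage (1567) and erythroid (13402) sums of the 6 arrays. Among the controls it had the lowest optic cup (5797), endothelial (397) and neuron (344) sums as well, and the highest lens sum (1821). The part of these cells in the values was not tested. Without control 9216 the log2 difference was 0.61 for Hif1a and 1.34 for Pdk1. The pigment epithelium sum of control 9216 (14389) lay between those of the other controls.

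Egln3 (PHD3), a HIF prolyl hydroxylase that HIF itself induces, read 76.0, 74.9 and 42.6 in controls, against 147, 91.7 and 103 in the mutants. The groups did not overlap, and mutant 8711 was the highest array. Group means of 64.5 ± 19.0 and 114 ± 29.3 (SD, n = 3 each) gave a difference of 0.82 (SE 0.35), or 1.77-fold (limma, unadjusted p of 0.0499, adjusted p = 0.852). Without mutant 8711 the difference was 0.63, with an unadjusted p of 0.0953. A second Egln3 probe set, under the filter level and not tested, read 1.2, 10.9 and 5.1 in controls, against 30.1, 13.3 and 16.5 in the mutants. Egln1 (PHD2), the main hydroxylase that marks HIF for destruction, had a log2 difference of -0.10 (95% interval -0.64 to 0.44), or -0.29 without mutant 8711, and its second probe set 0.28.

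The 6 hypoxia targets of the set shared no direction: 3 had higher and 3 lower mutant means, the median log2 difference was -0.21 (-0.051 without mutant 8711), and the groups overlapped for every gene. Vegfa, the vascular growth factor that the pigment epithelium and retina supply to vessels, read 119, 82.0 and 91.5 in controls, against 132, 108 and 142 in mutants. Only control 8711 exceeded the lowest mutant, and the log2 difference was 0.39 (SE 0.27, 95% interval -0.25 to 1.02, adjusted p = 0.852 in limma). Bnip3, which marks mitochondria for removal, read 346, 498 and 355 in controls, against 467, 603 and 281 in mutants, a log2 difference of 0.12, or 0.064 without mutant 8711, and the mutants lay on both sides of the control range. Ankrd37, a small ankyrin protein induced by HIF, had 0.15, and -0.14 without mutant 8711.

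The lower targets were Ndrg1, Ddit4 and P4ha1. Ndrg1, a stress-induced cytoplasmic protein, had the smallest p of the targets (adjusted p = 0.852 in limma), with 44.4, 29.2 and 52.1 in controls, against 21.2, 26.9 and 31.9 in the mutants and a log2 difference of -0.60 (SE 0.35). A second Ndrg1 probe set had -0.88. Ddit4 (REDD1), an inhibitor of mTORC1, read 136, 161 and 236 in controls, against 78.4, 114 and 168 in the mutants. The groups overlapped through mutant 9266, and the log2 difference was -0.59, or -0.32 without mutant 8711. P4ha1, the catalytic subunit of collagen prolyl hydroxylase, had -0.55 over all arrays and 0.03 without mutant 8711, where it read 63.7 against 179 to 271 in the others. The prolyl hydroxylase value thus rested on that array.

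Where several probe sets of a gene were tested, they had the same sign in 8 of 14 genes. Both Slc2a3, both Pdha1, all Hif1a and both Ndrg1 probe sets agreed in sign, and those of Slc2a1, Aldoa, Pgk1, Ldhb, Pdk1 and Egln1 did not. For Aldoa, Pgk1, Ldhb and Tpi1 the probe sets used have names ending in x, the manufacturer's mark for probes that can match other transcripts. Glycolytic genes have many processed pseudogenes, so these values are less certain. The second tested probe sets of Slc2a3 and Ndrg1 bear the same mark, which limits their agreement with the first.

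**Figure D4:**
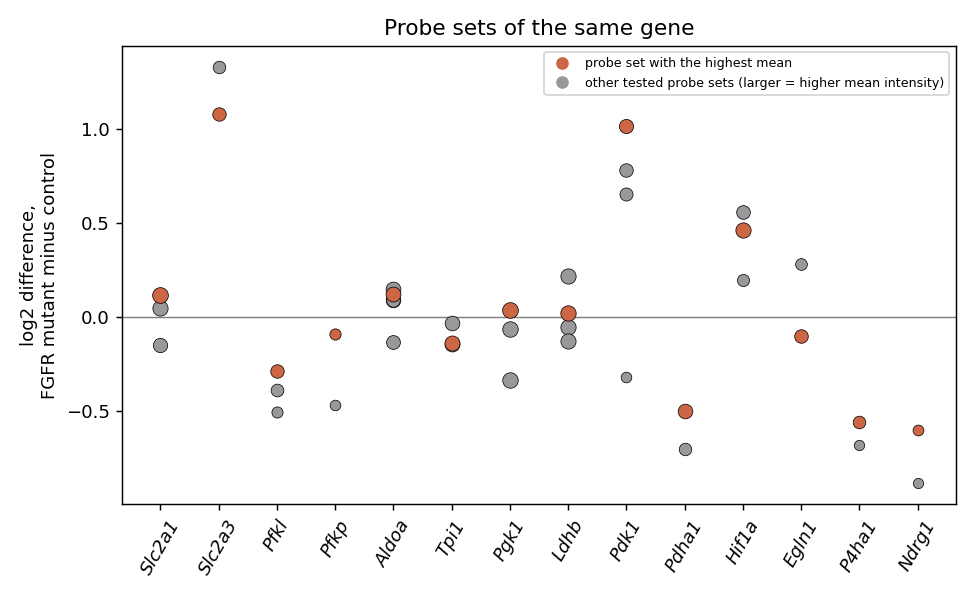
Log2 difference, FGFR mutant minus control, of every tested probe set for the 14 genes with more than 1, where orange marks the probe set with the highest mean and grey the others, and larger points have a higher mean intensity. The probe sets of Slc2a3 lie above 1, those of Pfkl and Pdha1 all lie below 0, and 3 of 4 for Pdk1 lie above 0.6.

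Further genes of the same pathways, listed with earlier results of these data known, showed no common direction. Of 78 such genes 62 were tested, of which 34 had differences above 0 and 28 below 0 (median 0.05). Without mutant 8711, 26 were above and 36 below 0 (median -0.06). With limma 0 of the 62 passed adjustment, the smallest adjusted p being 0.506, and 1 had an unadjusted p under 0.05. This was Bhlhe40, a transcriptional repressor and HIF target, with 75.7, 79.0 and 82.4 in controls, against 195, 148 and 238 in mutants and a log2 difference of 1.25 (SE 0.27). All mutants were above the controls, which were nearly equal.

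Of 24 other hypoxia targets tested, 14 were higher and 10 lower, with a median log2 difference of 0.11, or -0.09 without mutant 8711. Next to Bhlhe40, the smallest p was that of Igfbp3, an IGF-binding protein, with 48.2, 39.3 and 42.0 in controls, against 34.4, 28.0 and 16.2 in the mutants (log2 difference -0.74, adjusted p = 0.852 in limma). Of 12 other glycolysis and lactate genes 7 were higher, with the smallest p for Pfkfb2, which makes the activator of phosphofructokinase, with 109, 90.1 and 129.7 in controls, against 156, 146 and 176 in mutants (log2 difference 0.54), and for Eno3 (0.32). The lactate exporter gene Slc16a3 was under the filter level.

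Of 7 other pyruvate dehydrogenase genes 3 were higher. Pdhb, which encodes the partner of Pdha1 in the same enzyme, read 1359.5, 1426.5 and 1346 in controls, against 1923, 1729.5 and 1521 in the mutants, a log2 difference of 0.32 with groups that did not overlap. Its direction was thus opposite to that of Pdha1 (-0.50), and the difference between them was not tested. Pdp2, a phosphatase that reactivates the complex, had -0.67, mutant 8711 being by far its lowest array, and 0.33 without it. Pdk4 was under the filter level.

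Among 13 other oxygen-sensing genes, 7 were higher and 6 lower, with a median of 0.01. The smallest p values were those of Rbx1 (-1.49, at 2.2 in mutant 8711, and -0.02 without it) and Elob (0.34, and 0.091 without it), both parts of the ubiquitin ligase that removes HIF. Epas1, the HIF2 alpha gene, had a log2 difference of -0.22, Arnt, the common beta subunit, -0.35, and Vhl, which recognises hydroxylated HIF, 0.02. Without mutant 8711 these were -0.35, -0.13 and -0.16. Of 6 pentose phosphate enzymes 3 were higher, with the smallest p for Tkt (-0.38, and -0.57 without mutant 8711) and Pgls (-0.52 and -0.38). Without mutant 8711 all 6 were lower, with a median of -0.16.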

How the data were processed

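The deposited values are linear intensity values of 6 Affymetrix arrays, 1 per probe set and array. MAS5 is named in the submitters' processing notes, without its version. RNA came from Trizol extraction and was labelled with biotin, per the labels' protocols. The 2% trimmed mean of every array is 150, so the authors' deposited intensity values were taken as already scaled, which assumes that most transcripts keep their level. Of 45101 probe sets, 64 were manufacturer controls, 34945 had 1 gene symbol, 932 several and 9160 none.

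Values were transformed as log2(intensity + 1.7), 1.7 being the 10th percentile, which understates changes of dim genes. Probe sets with a mean log2 value under the 40th percentile (4.07, an intensity of 15.1) were left out, leaving 27022. Groups were compared with limma 3.58.1 (eBayes with trend and robust, statmod 1.5.0, R 4.3.3), unpaired and two-sided, with Benjamini-Hochberg adjustment over all 27022. Intervals are 95% intervals of that fit, which was tested on simulated data. The number of arrays limits the precision.

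Values in every array are given for members with an unadjusted p under 0.05 or groups that do not overlap, for the highest and the smallest-p member of each role, and for Hif1a, Slc2a1, Vegfa, Ldha and Pdk1. Hk2, Pgam1 and Ddit4 were added after their values were seen. Further probe sets of a gene were too. Of other lists the 2 genes with the smallest p are named, with Epas1, Arnt, Vhl, Slc16a3 and Pdk4 beside them. Members and lists were chosen with earlier results of these data known. The alternatives were other added values (1 and 16), filters, normalizations, variance models, array weights, probe set rules, a replicate block, and fits without an array or without both 8711 arrays. Figures were drawn with matplotlib 3.10.9. Promoter windows are from RefSeq, GRCm38.p6.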

Additional observations from a re-analysis of the deposited data

Results flagged for a closer look

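The Gapdh control probe sets, which enter no comparison of the members, read 93.6 times higher at the 3 prime than at the 5 prime end in mutant 8711, where the highest control had 14.96. This ratio was singled out because it lies above the level of the control samples in probe sets kept out of the gene comparisons. The same array had 213 on the middle Gapdh probe set, against 3324 to 4921 in the others. Its Actb ratio of the same 2 ends was 14.8, where the highest control had 12.1, so the excess was much smaller for Actb.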

How the results depend on the processing

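No member passed adjustment under any alternative tried. The smallest adjusted p in the set was 0.307 without mutant 8711 and 0.765 with the title number as a replicate block, where 4 members had an unadjusted p under 0.05. The groups were compared unpaired, and whether the numbers pair the arrays was not settled. Deviations from the group means correlated at 0.05, 0.48 and -0.11 between arrays of the same number. Between arrays of different numbers they correlated at -0.45 to 0.35. These values cannot decide on pairing, since the deviations of so few arrays sum to 0 in each group and mutant 8711 stood apart. The number of probe sets passing over the whole table was 0, but 184 with array weights, 1 without both 8711 arrays, and 0 to 1 with 1 array left out (1 without mutant 8711). The median over the members stayed between -0.15 and 0.08. It ran from -0.14 (without control 9216) to 0.08 (without mutant 9216) with 1 array left out. Of the 29 members 14 kept their sign throughout, Slc2a3, Pdk1, Hif1a, Egln3, Vegfa, Pdha1, Ldha, Ndrg1 and Ddit4 among them. The other 15 changed sign under 1 or more alternatives. Their log2 differences there were -0.12 for Hk1 and -0.15 for Ldhb with array weights. With quantile normalization they were 0.025 for Pfkp, -0.024 for Pgk1 and -0.043 for Ldhb, and with median centring 0.022 for Pfkp, 0.078 for Pdk3 and 0.011 for Egln1. The mean of all probe sets gave -0.12 for Pgk1 and 0.091 for Egln1. Without both 8711 arrays they were 0.17 for Hk2, -0.076 for Pgk1, 0.023 for Pkm, -0.029 for Bnip3, 0.058 for P4ha1 and -0.20 for Ankrd37. With 1 array left out the ranges were -0.0081 to 0.24 for Slc2a1, -0.58 to 0.13 for Hk2, -0.30 to 0.12 for Pfkp, -0.42 to 0.024 for Tpi1, -0.094 to 0.25 for Pgk1, -0.38 to 0.082 for Pgam1, -0.15 to 0.14 for Ldhb, -0.80 to 0.16 for Pdk2, -0.23 to 0.13 for Pdk3, -0.29 to 0.065 for Egln1, -0.12 to 0.43 for Bnip3, -0.996 to 0.034 for P4ha1 and -0.14 to 0.34 for Ankrd37. The cause of these changes was not tested. Dim or variable members were the least precise, as P4ha1, whose 95% interval ran from -1.78 to 0.67.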
